A study of Danio rerio with 1324 samples.

Results

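This comparison set single beta-cells of zebrafish fed 3 times daily (3TD) against those of siblings fed intermittently (IF). The cells were chosen by their feeding label alone: 35 from the 3TD pool and 43 from the IF pool, 78 of the 1014 cells in the deposited tables (the labels list 40 and 55 cells, and 1324 in all). All fish carried Tg(ins:BB1.0L), a transgene that marks beta-cells through the insulin promoter and that the study's methods list together with the lens reporter cryaa:RFP, came from a single clutch and were 4 months post-fertilization (mpf) when their islets were taken. From 3 mpf onward they lived on Artemia (brine shrimp): 6 fish were given it every other day and 6 at 3 meals a day, spaced by 2 hours or more. Individual intake was left free. Cells were sorted by fluorescence into plates, turned into full-length cDNA libraries with SMART-Seq v4, and the diets were processed and sequenced together. The question was what altered nutrition does to the transcriptome of beta-cells.

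The 6 fish of a diet gave a single pool, and nothing in the labels ties a cell to its fish. There was therefore no replicate of either diet, no test was made between them, and effects of diet and of pool cannot be told apart. Values below are transcripts scaled to the same total in every cell (TPM), averaged over cells as log2(TPM + 1). A difference is the 3TD mean minus the IF mean on that scale, and ± gives the SD over 35 or 43 cells, which describes the spread between cells and is no error of the diet. Shares of cells with at least 1 read of a gene carry exact Clopper-Pearson 95% intervals that cover counting error only.

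Beta-cells sense glucose by taking it up and phosphorylating it through glucokinase. The ATP made from it by glycolysis and mitochondrial respiration closes potassium channels, calcium enters, and insulin granules fuse with the plasma membrane. Because proinsulin is made in large amounts, these cells also depend on the machinery of the endoplasmic reticulum (ER) that imports, folds and exports secreted proteins, and on the unfolded protein response that adjusts it. Feeding is known to change both demands in the beta-cells of vertebrates.

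Both pools carried the identity that their label gives. Reads of ins, the zebrafish insulin gene, and of pdx1, a transcription factor of beta-cells, were found in 35 of 35 3TD cells and 43 of 43 IF cells. The other beta-cell markers were less general, with mnx1 read in 20 of 35 and 34 of 43 cells and ucn3l in 4 and 16. Markers of blood, vessel and exocrine cells were scarce: none of the 3 erythrocyte markers found in the tables had a read in any of the 78 cells, which allows a share of up to 3.85%, and no endothelial or leukocyte marker had a read in more than 1 cell. Of 21 acinar marker genes 14 had a read, each in at most 7 cells of both pools. Of 7 duct marker genes, 4 had reads: krt8 in 28 of 35 and 34 of 43 cells (up to 473 and 1011 TPM), krt18 in 22 and 21, sox9b in 18 and 15 at no more than 2.69 TPM in any cell, and ANXA4 in 3 and 2. Other islet hormones were also read in beta-cells. The glucagon genes gcga and gcgb were read in 28 of 35 and 35 of 43 cells (medians 24.3 and 28.8 TPM) and in 12 and 13 cells, and sst1.1, a somatostatin gene of delta-cells, in 15 and 13. In each pool 1 cell stood apart with sst1.1 at 30.1% of its TPM in 3TD and 37.9% in IF, and ins at 38.9% and 15.9%.

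Insulin mRNA took a larger part of the transcriptome in the 3TD pool. It made up 38.9% of a cell's TPM at the lowest, 75% at the median and 79.5% at the highest in 3TD, against 15.9%, 62.2% and 85.2% in IF. Cells above 70% numbered 29 of 35 in 3TD and 14 of 43 in IF, so most 3TD cells lay above that level and most IF cells below it, with overlapping ranges. In normally fed fish of the same age, sequenced on other dates, the median was 67% in the pool of the training set (88 cells) and 68% in a second batch (46 cells, 48.3 to 80.5%), both between the diets. The training pool ranged from 0.00112 to 77.7% and held 6 cells with under 1% ins, without which its median was 67.4%. On the log2 scale the ins difference was 0.28 (19.46 ± 0.21 against 19.18 ± 0.40). Since TPM values of a cell sum to a constant, more ins leaves less for every other gene, and the values of other genes are therefore also given with ins left out and the rest rescaled.

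The 3TD cells also showed reads of more genes. Depth was alike, at 59848 to 474251 reads (median 363387) in 3TD and 23533 to 510852 (median 359708) in IF. A median of 2322 genes per cell (1579 to 3837) had a read in 3TD and 2038 (1535 to 2527) in IF. When 100000 reads other than ins were drawn from each cell, 33 of 35 3TD cells had 1768 to 3512 genes (median 2292) and 40 of 43 IF cells 1447 to 2383 (median 1929). The gap in detected genes was thus present at equal depth and with insulin removed.

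**Figure D1:**
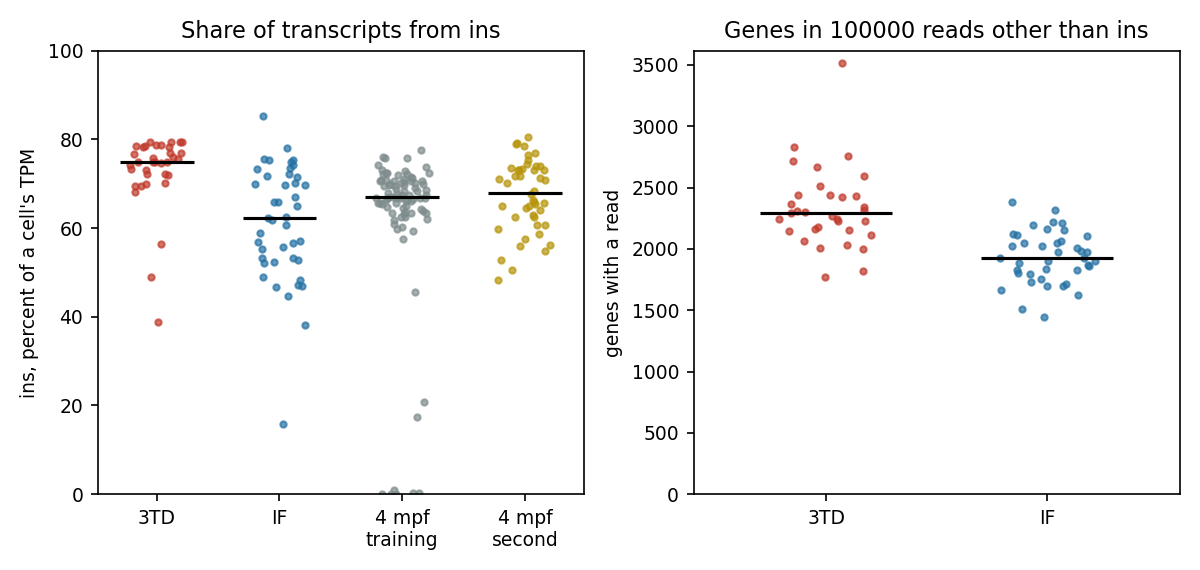
Left, percent of TPM from ins in each cell of the 3TD, IF and the 2 normally fed 4 mpf pools; right, number of genes with a read in 100000 reads other than ins for each 3TD and IF cell. Each point is a cell and black lines are medians: 75% and 62.2% for ins, 2292 and 1929 for genes, with overlapping ranges in both panels.

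Across the transcriptome, 252 genes lay more than 1 above and 247 more than 1 below in 3TD, among 3232 genes with a mean of at least 1 over all cells. These were 7.8% and 7.64% of the genes kept, and 15.4% together. The median difference was 0.02 and the SD over genes 0.75. Hereafter "higher in 3TD" and "higher in IF" as counts mean a difference past 1. Counts within a list are to be read beside the shares of all genes kept, 7.8% and 7.64%, or 18.5% and 6.29% with ins left out. Abundant genes were mostly higher in IF where they differed on the TPM scale: of 387 genes with a mean of at least 5, 15 were higher in 3TD and 47 in IF, and at a mean of at least 7 the counts were 2 and 13. On that scale the larger ins share of 3TD leaves less for other genes, and these counts are not given with ins left out.

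Differences of this number also separate pools that ate normally. The same threshold was passed by 26.3% of 4346 genes between the 2 pools of 4 mpf, by 42.5% of 3646 genes between 2 batches of 3 mpf and by 19.1% of 4190 genes between 2 batches of 6 mpf. Those pairs differ in date of processing, which the diets do not, and the 4 mpf pair differs in depth as well. Its cells had medians of 274025.5 reads and 2762 genes in the training set and 785792 reads and 3654 genes in the second batch. The pairs describe how far pools can stand apart rather than an error of the diet comparison. Of the 499 genes past 1 between the diets, 230 (46.1%) differed by more than they did in any of the 3 same-age pairs, 47.4% of them higher in 3TD and the rest in IF. The corresponding share of all genes kept was 15.5%. The 499 were chosen by the size of the same difference, so a larger share among them follows from that choice. Without the 6 training cells that held under 1% ins, an alternative added after seeing the data, the 4 mpf pair passed at 26.6% and the diet genes above every pair were again 230.

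**Figure D2:**
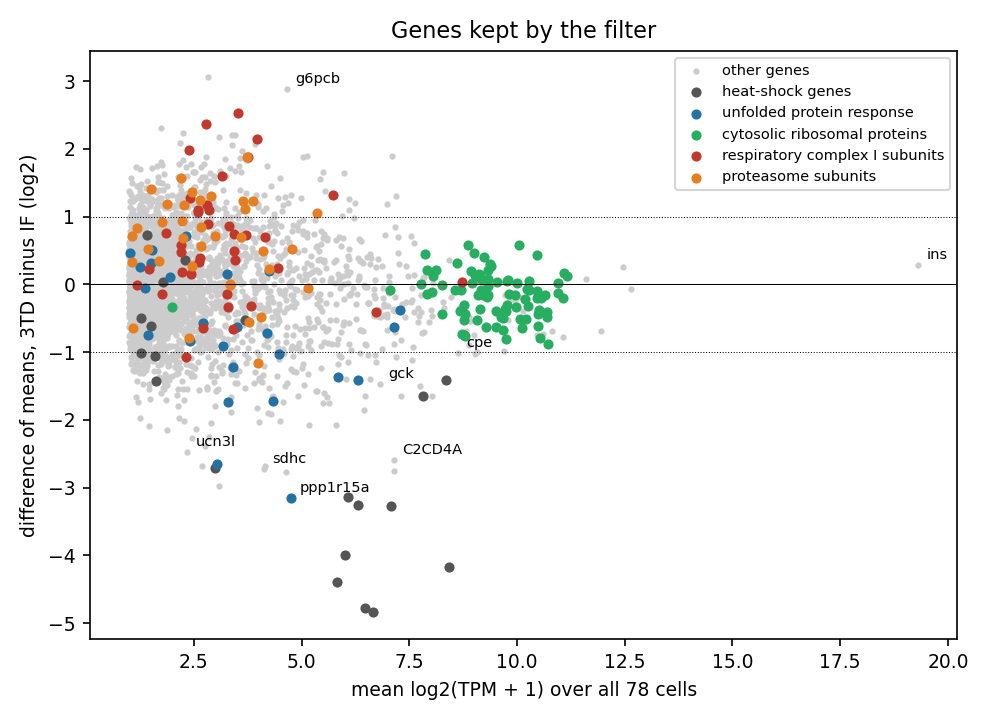
Difference of mean log2(TPM + 1), 3TD minus IF, against the mean over all 78 cells for the 3232 genes kept, with 5 gene lists coloured and dotted lines at 1 and -1. Complex I and proteasome subunits lie mostly above 0, unfolded protein response and heat-shock genes mostly below, and cytosolic ribosomal proteins between the dotted lines.

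The genes higher in 3TD were read in more 3TD cells. All 252 had a read in a larger share of 3TD cells, beside 2122 of all 3232 genes kept. Their median share was 51.4% against 27.9%, beside 40% against 32.6% for all genes kept. Cells without a read lower the mean by which the 252 were chosen, so this follows in part from the choice. Among cells with a read, 19.4% of the 252 had the higher median TPM in 3TD beside 9.96% of all genes kept, and 50.4% beside 27.4% with ins left out. Mean TPM was higher in 3TD for 196 of the 252 and higher in IF for 56. All 247 genes higher in IF had the higher mean TPM there, as did 2666 of the 3232 genes kept, and their median share of cells was 55.8% against 37.1%. The larger number of genes per 3TD cell runs in the same direction as these shares, and its part in each gene's value was not tested. With ins left out, the median gene lay 0.29 higher in 3TD and 779 genes of 4210 were higher there against 265 in IF, so that 74.6% of the genes past 1 were higher in 3TD in place of 50.5%. Gene differences on that scale are to be read against a shift of 0.29. On the log2 of the mean TPM with ins left out the balance was the opposite, with 315 genes higher in 3TD and 575 in IF and a median of -0.11.

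Among genes of glucose handling, g6pcb was higher in 3TD and slc2a2, gck and PKLR were higher in IF. The gene for glucose-6-phosphatase b, g6pcb, which releases free glucose from glucose-6-phosphate and so opposes glucokinase, ranged from 0 through a median of 127.2 to 1546 TPM in 3TD and from 0 through 0 to 1267 TPM in IF. It was read in 31 of 35 3TD cells (88.6%, 73.3 to 96.8%) and in 19 of 43 IF cells (44.2%, 29.1 to 60.1%). Its difference was 2.88 (6.25 ± 2.78 against 3.38 ± 3.95) and 3.93 with ins left out, the largest of the genes of mean 3 or more that carry a symbol. Most 3TD cells had reads of it whereas 24 IF cells had none, and the ranges of TPM overlapped. Its level also varied between the normally fed 4 mpf pools, which differ in depth, at 2.2 in the training set and 6.69 in the second batch.

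The steps that bring glucose into the pathway were higher in IF. For slc2a2, the glucose transporter GLUT2, the median was 8.86 TPM in 3TD (0 to 207) and 69 TPM in IF (0 to 654), a difference of -1.92. Glucokinase, gck, had a median of 123.3 TPM in 3TD (0 to 602) and 245 TPM in IF (0 to 1236), with reads in 30 of 35 and 41 of 43 cells and a difference of -1.47 (6.01 ± 2.83 against 7.49 ± 2.31). PKLR, the pyruvate kinase of the last glycolytic step in liver and islet, had medians of 59 and 164.7 TPM and a difference of -1.39. These values with ins left out were -1.90, -1.17 and -1.08, and the IF cells extended higher than the 3TD cells for slc2a2 and gck while the ranges overlapped for all.

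Glycolysis as a list lay below the median gene in 3TD. Of 40 genes, 15 were kept, none was higher in 3TD and 2 were higher in IF (gck and PKLR), with a median of -0.49 beside 0.02 for all genes. With ins left out its median was -0.02 beside 0.29 for all genes, and 2 of 21 genes kept were higher in IF. Glucose entry, gluconeogenesis and the pentose phosphate route kept 9 of 31 genes, 1 higher in 3TD (g6pcb) and 1 in IF (slc2a2). PCK1, the gluconeogenic enzyme that makes phosphoenolpyruvate, was read in 4 of 35 and 3 of 43 cells and was too sparse to compare.

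**Figure D3:**
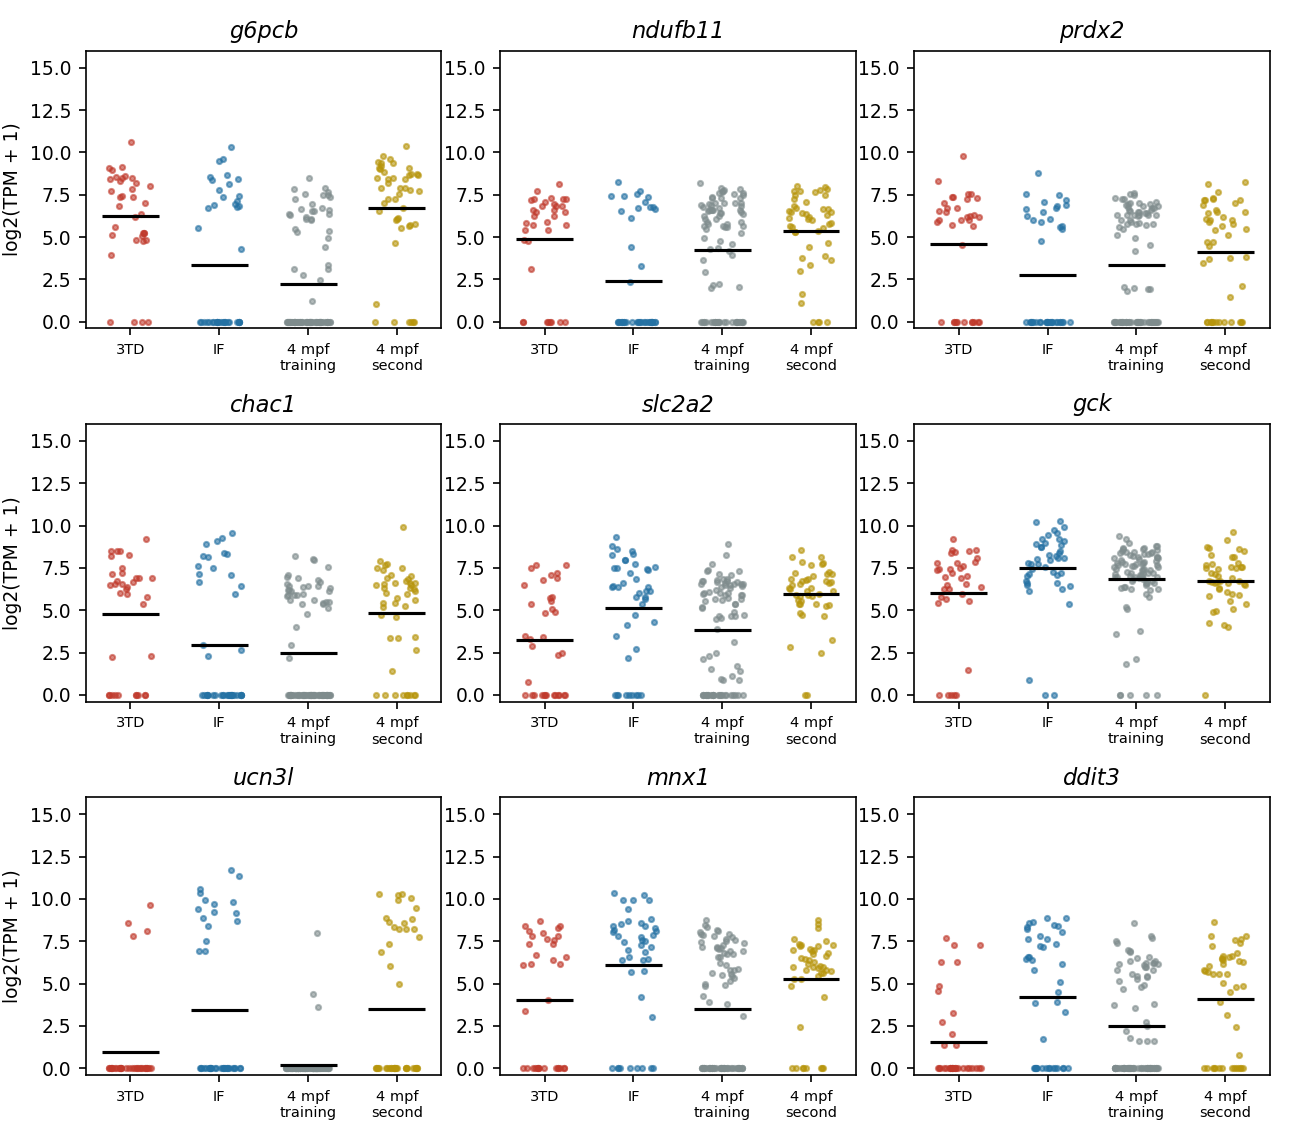
Values of 9 genes as log2(TPM + 1), each point a cell and each black line the mean over cells, in 3TD, IF and the 2 normally fed 4 mpf pools. g6pcb, ndufb11, prdx2 and chac1 have fewer cells at 0 in 3TD than in IF, slc2a2, gck, ucn3l, mnx1 and ddit3 fewer in IF, and the normally fed pools differ from each other, most clearly for g6pcb and ucn3l.

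Mitochondrial respiration was the functional group with most subunits higher in 3TD, next to the proteasome. Complex I, which passes electrons from NADH to ubiquinone, had 38 of 42 subunits kept, with a median of 0.54. Of these, 12 (31.6%) were higher in 3TD, beside 7.8% of all genes kept, and 1 was higher in IF (ndufb6). The subunit ndufb11 had a median of 73.2 TPM in 3TD (0 to 284) and 0 TPM in IF (0 to 304), was read in 27 of 35 and 16 of 43 cells and differed by 2.53. For ndufs3, a core subunit, the medians were 64.9 and 0 TPM and the difference 2.36. The subunit ndufs5 differed by 2.15, with reads in 26 of 35 and 19 of 43 cells. In these genes the highest IF cells reached as far as the highest 3TD cells, and the pools parted in the number of cells at 0.

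The summed TPM of complex I was nearly the same in both pools, at a median of 2650 in 3TD (1330 to 3980) and 2520 in IF (1210 to 6550). With ins left out the sums were 9700 and 6410 and the median difference was 0.91. Complexes II to IV had 4 subunits (14.8%) higher in 3TD and 2 (7.41%) in IF of 27 kept (median 0.35). The shares of all genes kept were 7.8% and 7.64%. The ATP synthase had 3 (18.8%) higher in 3TD and 0 in IF of 16 kept (median 0.24). The 3TD cells thus had more of these transcripts relative to the genes other than insulin, and about as many relative to all. Relative to the median gene, the median lengths of complex I, complexes II to IV and the ATP synthase were 0.40, 0.35 and 0.51. Counted against genes of like length, 8, 4 and 2 of their genes were higher in 3TD.

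Single members of these complexes went opposite ways. Succinate dehydrogenase, complex II, showed sdhdb, a membrane anchor, at 1.63 and sdhc, the other anchor, at -2.72. Reads of sdhc were found in 14 of 35 3TD cells (40%, 23.9 to 57.9%) and 33 of 43 IF cells (76.7%, 61.4 to 88.2%), with medians of 0 and 92.6 TPM. It was read in most cells of IF and in a minority of 3TD. For atp5g1, which encodes the ring subunit c of ATP synthase, the range was 49.2 to 508 TPM in 3TD (median 286) and 0 to 702 TPM in IF (median 232), a difference of 1.30, with 7 IF cells and no 3TD cell without a read. A second gene for that subunit, atp5g3a, differed by 1.19, and where 2 genes encode similar proteins the counting can split shared reads.

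Other mitochondrial lists had medians nearer to that of all genes than complex I had, though not all nearer than the other respiratory complexes. The tricarboxylic acid cycle and pyruvate entry had 1 gene higher in each direction of 26 kept (median 0.17), these being the same sdhdb and sdhc. Mitochondrial ribosomal proteins had 26 genes kept, with a median of 0.45. Higher in 3TD were 4 (15.4%), among them mrpl28 (1.51) and MRPL52 (1.31), and higher in IF was 1 (3.85%), mrpl2 (-1.56). Fatty-acid oxidation and lipid handling kept 26 of 64 genes with none higher in 3TD. Its 2 genes higher in IF were decr1, a reductase for unsaturated fatty acids (-1.54), and cpt1ab, a carnitine palmitoyltransferase that admits fatty acids to mitochondria (-1.31, reads in 11 of 35 and 19 of 43 cells). The uncoupling protein gene ucp2 had medians of 28.8 and 44.6 TPM and a difference of -0.51, or 0.03 with ins left out. In lipid synthesis 8 of 49 genes were kept and 1 was past 1, the elongase elovl1a (-1.16).

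**Figure D4:**
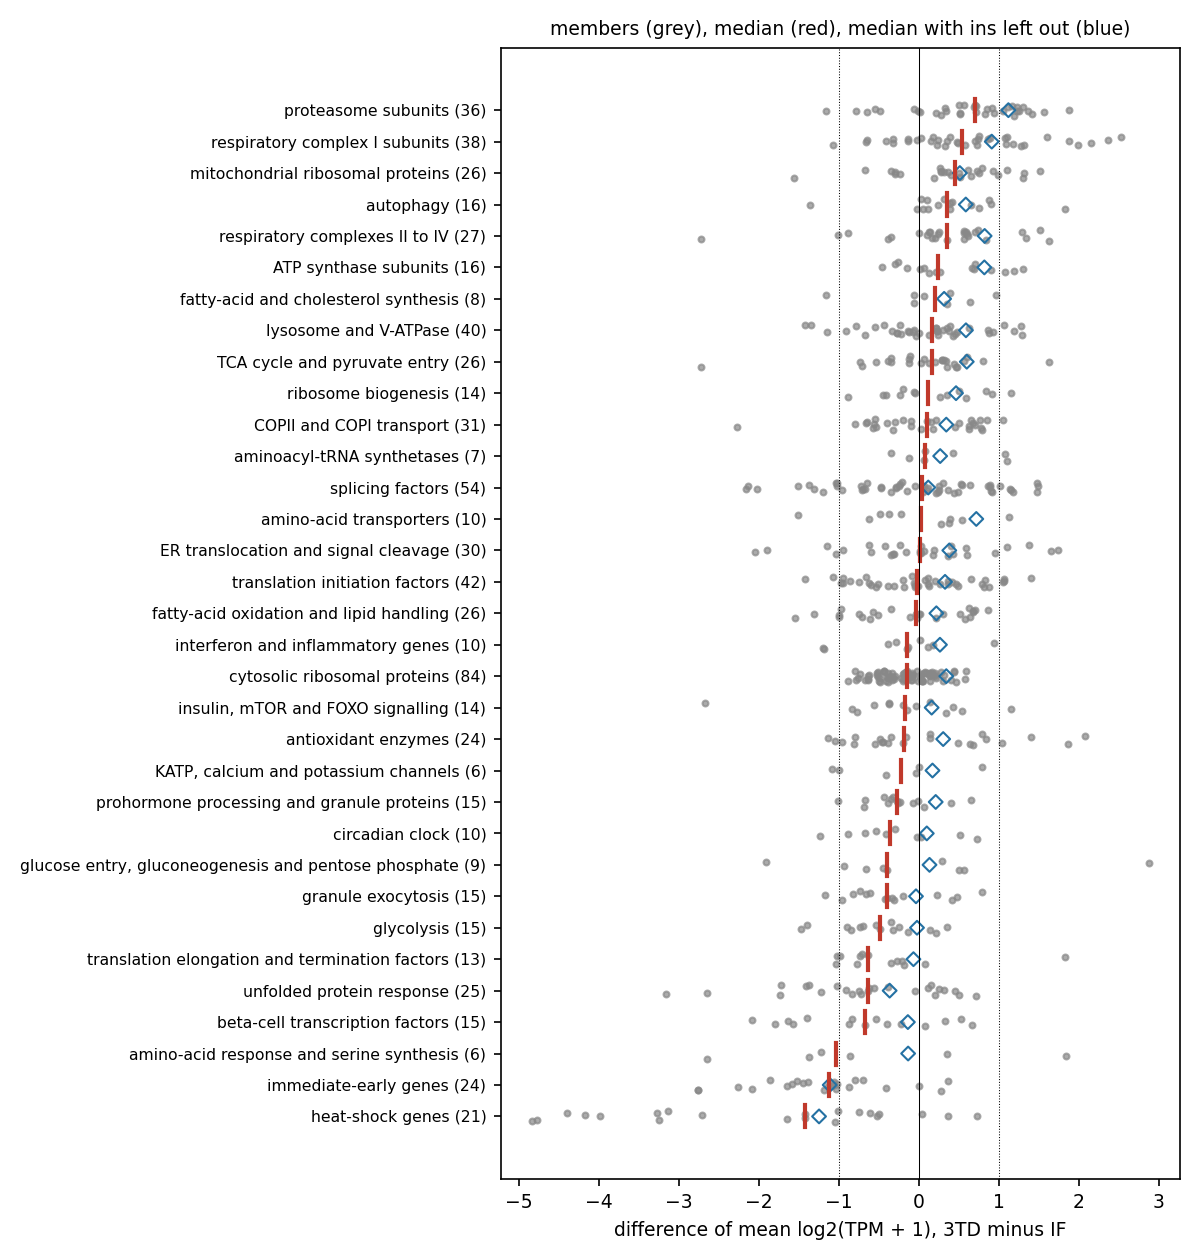
Difference of mean log2(TPM + 1), 3TD minus IF, for the kept members (grey points, number in brackets) of each list, with the list's median (red) and its median after ins was left out and TPM rescaled (blue). Of lists with at least 5 kept members, proteasome subunits (0.71) and complex I (0.54) have the highest medians, immediate-early (-1.12) and heat-shock genes (-1.43) the lowest, and most medians move to the right with ins left out.

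Among the hormones, the islet peptide ucn3l (urocortin 3, in mammals a marker of mature beta-cells that promotes somatostatin release) was higher in IF. It was read in 4 of 35 3TD cells (11.4%, 3.2 to 26.7%) and 16 of 43 IF cells (37.2%, 23 to 53.3%). Its level ranged up to 808 TPM in 3TD and up to 3323 TPM in IF with a median of 0 in both, and its difference was -2.48. Most cells of both diets had no read of the gene, which does not show that it was silent in them. In the normally fed 4 mpf pools, which differ in depth, its mean was 0.18 in the training set and 3.50 in the second batch. That gap was wider than between the diets. The somatostatin gene sst1.1 (0.96) and gcga (-0.27) were not past 1, and only 5 of 16 islet hormone genes were kept.

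Granule proteins were slightly lower in 3TD on the TPM scale. Of 19 prohormone processing and granule genes 15 were kept, none was higher in 3TD, and the only gene past 1 was cpe (-1.01), the carboxypeptidase that trims processed prohormones. It ranged from 27.6 to 1600 TPM in 3TD (median 312) and from 80.8 to 1903 TPM in IF (median 544), and was read in all 78 cells. Secretogranin 3, scg3, the most abundant of the group and a binder of granule cargo, had medians of 3193 TPM in 3TD (1027 to 8066) and 4779 TPM in IF (1286 to 15510) and a difference of -0.68. Both genes were expressed by all cells at levels that overlapped widely between the diets.

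The prohormone convertases that cut proinsulin showed smaller differences. For pcsk1 the medians were 121.8 and 136.8 TPM and the difference -0.67. For pcsk2 they were 44.8 and 45.7 TPM and the difference -0.23. The other granule genes named here lay between -0.44 and 0.40. They included pcsk1nl (-0.44), an inhibitor of pcsk1, pam (-0.35), which amidates peptides, and the granins scg2b (-0.27) and chga (-0.07). The phosphatase-like proteins of the granule membrane, ptprna and ptprnb, had -0.32 and -0.26. For rgs16, a regulator of G-protein signalling, the difference was -0.01, and for qpct, which forms pyroglutamate, 0.40. Of 2 copies of scg5, the chaperone of pcsk2, the abundant one differed by -0.39 and the other by 0.06. The highest difference in the list was 0.65, in a kept gene not named here. The list's median was -0.27, and 0.21 with ins left out, where a shift of 0.29 was that of the median gene.

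Fusion machinery gave no clear direction. Granule exocytosis kept 15 of 36 genes with a median of -0.40 (-0.04 with ins left out), and rims2b, a scaffold of release sites, was the only one past 1 (-1.17). Its reads were found in 10 of 35 and 21 of 43 cells. Of the channel genes 6 of 47 were kept, and kcnj11, the pore of the ATP-sensitive potassium channel, was past 1 at -1.09 with reads in only 5 of 35 and 12 of 43 cells.

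In the early secretory pathway, subunits of the same machines lay on both sides. ER translocation and signal cleavage had 30 of 33 genes kept, 4 higher in each direction, with a median of 0.02. Higher in 3TD were spcs3, a signal peptidase subunit (medians 93 and 0 TPM, difference 1.74), and srprb, part of the receptor for the signal recognition particle (41.1 and 0 TPM, 1.66). Higher in IF were ddost, of the oligosaccharyltransferase (medians 2.15 and 103.3 TPM, difference -1.90), and krtcap2, of the same complex (0 and 4.08 TPM, -2.05). The summed TPM of the list was 2030 in 3TD (982 to 6210) and 2710 in IF (1370 to 6350) at the median.

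Transport between ER and Golgi was alike in most genes. Of 31 of 56 COPII and COPI genes kept, copz1, a coat subunit, was higher in 3TD (1.05) and lman1, a lectin that carries glycoproteins out of the ER, higher in IF (-2.27). Reads of lman1 were present in 7 of 35 3TD cells (20%, 8.44 to 36.9%) and 20 of 43 IF cells (46.5%, 31.2 to 62.3%).

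Every member past 1 of the unfolded protein response list was higher in IF on the TPM scale. That list does not hold chac1, a gene higher in 3TD (1.84) that is given below with the amino-acid response. Of 41 genes 25 were kept, with a median of -0.64. None was higher in 3TD and 8 (32%) were higher in IF, beside 7.8% and 7.64% of all genes kept. With ins left out 1 of 29 kept was higher in 3TD and 6 in IF (median -0.36), beside 18.5% and 6.29% of all genes. The gene ppp1r15a, whose product restarts translation by dephosphorylating eIF2 alpha, had a median of 0 TPM in 3TD (0 to 792) and 177.2 TPM in IF (0 to 3758). Its reads were in 14 of 35 and 34 of 43 cells and its difference was -3.16, the most negative of the genes of mean 3 or more outside the heat-shock and immediate-early lists. The transcription factor ddit3 (CHOP), induced in mammals when ER stress persists, had medians of 0 and 32.9 TPM, reads in 12 of 35 and 27 of 43 cells and a difference of -2.65. IF cells with high values of either gene exceeded the highest 3TD cells.

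Further members followed with smaller gaps. For atf4b, the transcription factor whose translation rises under this response, medians were 68.6 TPM in 3TD (0 to 494) and 219 TPM in IF (0 to 965) and the difference -1.37. The ER chaperone hspa5 (BiP) had medians of 79.7 TPM in 3TD (0 to 898) and 203 TPM in IF (0 to 2225) and a difference of -1.41. In the normally fed 4 mpf pools, which differ in depth, hspa5 stood at 4.82 and 8.16. That gap was wider than the one between the diets (5.53 ± 3.00 and 6.94 ± 3.26). Summed over the list, a cell had 440 to 4560 TPM in 3TD (median 1230) and 644 to 12400 TPM in IF (median 2780).

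The heat-shock and immediate-early lists, which can respond to handling as well as to physiology, differed in the same direction as this response. Heat-shock genes had 14 of 21 kept genes higher in IF and none in 3TD (median -1.43), with a summed level of 686 to 26500 TPM in 3TD (median 1500) and 1160 to 43900 TPM in IF (median 7940). Immediate-early genes had 17 of 24 higher in IF and none in 3TD, with sums of 554 to 8600 TPM in 3TD (median 1300) and 595 to 24400 TPM in IF (median 3860). Across the 43 IF cells the summed unfolded protein response and heat-shock levels had a rank correlation of 0.76 (0.59 with ins left out), and across the 35 3TD cells 0.43 (0.47). The rank correlation of the heat-shock sum with ins was -0.61 in IF and -0.34 in 3TD. With the number of genes that had a read it was -0.37 and -0.15, or -0.44 and -0.23 with ins left out. Points of such correlations are cells that share a pool and a common total. The part of heat-shock and immediate-early expression in the other differences was not tested. Of the 247 genes higher in IF, 216 belonged to neither list and 31 to one of them. The lists held only 21 and 24 of the 3232 genes kept, so nearly all genes lay outside them.

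Amino-acid metabolism was sparse. The amino-acid response and serine synthesis list kept 6 of 29 genes, 1 higher in 3TD and 3 in IF, with a median of -1.04. Its most negative member was ddit3 (-2.65), which is also counted above with the unfolded protein response. With ins left out 1 of 8 kept was higher in 3TD and 2 in IF (median -0.13 beside 0.29 for all genes). The gene higher in 3TD was chac1 (medians 80.3 and 0 TPM, difference 1.84), an enzyme that breaks down glutathione and in mammals a target of the ATF4 pathway. It was opposite in sign to atf4b and ddit3. Of 57 amino-acid transporters 10 were kept. The neutral amino-acid carrier slc1a4 ranged from 0 to 390 TPM in 3TD (median 184.6) and from 44.5 to 1261 TPM in IF (median 390), a difference of -1.50 (6.91 ± 2.05 against 8.41 ± 1.29). Another carrier, slc43a2a, a transporter of large neutral amino acids, was higher in 3TD at 1.13.

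Translation genes were close between the diets at the ribosome itself. Of 86 cytosolic ribosomal protein genes 84 were kept and none was past 1 in either direction, with differences from -0.88 to 0.58 and a median of -0.15. Their summed level was 51600 to 107000 TPM in 3TD (median 69500) and 32300 to 117000 TPM in IF (median 84800). With ins left out the order of the medians turned, to 279000 in 3TD and 225000 in IF, and the median difference was 0.34 beside 0.29 for all genes. Both medians lay near that of all genes on the same scale.

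Elongation factors were lower in 3TD on the TPM scale. Of 20 elongation and termination factors 13 were kept with a median of -0.63 (-0.07 with ins left out), 1 higher in 3TD and 2 in IF. The abundant eef1a1l1, which delivers aminoacyl-tRNA to the ribosome, ranged from 665 to 4724 TPM in 3TD (median 1649) and from 593 to 6132 TPM in IF (median 3006), a difference of -0.77 with reads in every cell. The paralogs eef1da and eef1db, subunits of its exchange factor, went apart, at 1.83 and -1.04. Reads of eef1da were in 28 of 35 and 20 of 43 cells, and those of eef1db in 29 and 40. Similar sequences of paralogs can divide reads, which was not examined here. The elongation factor gene eef2l2 was also higher in IF (-1.02).

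Initiation factors were evenly divided. Of 54 genes 42 were kept, with 4 higher in 3TD, 2 in IF and a median of -0.02. The RNA helicase eif4a1a had medians of 27.9 and 0 TPM and a difference of 1.40, and the cap-binding relative eif4e3 1.07. Higher in IF were eif2b4 (-1.42), a subunit of the exchange factor for eIF2, and eif5a2 (-1.07), the factor that carries hypusine. The kinase gene mknk2b, whose product phosphorylates the cap-binding factor eIF4E, was counted with insulin, mTOR and FOXO signalling and not with these factors. It differed more than they did, with medians of 0 TPM in 3TD (0 to 95) and 25.8 TPM in IF (0 to 209). Its reads were in 13 of 35 and 32 of 43 cells and its difference was -2.67. Ribosome biogenesis kept 14 of 30 genes with nhp2, a protein of small nucleolar particles, past 1 (1.15), and 7 of 19 aminoacyl-tRNA synthetases were kept with dars (1.11) and mars (1.07) higher in 3TD.

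The proteasome, which degrades ubiquitin-tagged proteins, had the highest median of the lists with at least 5 kept members. Of 50 subunit genes 36 were kept, with a median of 0.71. Among them 12 (33.3%, beside 7.8% of all genes kept) were higher in 3TD and 1 in IF. With ins left out 23 of 39 kept were higher in 3TD and none in IF (median 1.12), where 18.5% of all genes were higher in 3TD, and with those differences centred on the median gene 15 and 2 were past 1 (median 0.83). The core subunit psmb6 had medians of 46.7 TPM in 3TD (0 to 208) and 0 TPM in IF (0 to 198) and a difference of 1.87, and psma6a, of the outer ring, differed by 1.57. The exception was psmb2, a core subunit with medians of 27.2 and 56.4 TPM (-1.16). Summed TPM over the list ran the other way, with a median of 1660 in 3TD (482 to 5290) and 2520 in IF (826 to 4360), or 6590 and 6040 with ins left out. Of the 36 subunits, 32 had a read in a larger share of 3TD cells while 12 had the higher mean TPM there. On the log2 of the mean TPM the list's median was -0.23, so its direction depended on how cells were averaged.

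Lysosome and autophagy genes passed 1 at shares near those of all genes. Of 63 lysosomal and proton pump genes 40 were kept (median 0.17). Higher in 3TD were 4 (10%) and higher in IF 3 (7.5%), beside 7.8% and 7.64% of all genes kept. The protease gene lgmn (1.29) and the pump subunit atp6v1f (1.28) were higher in 3TD, whereas the pump subunits atp6v0e1 (-1.42) and atp6v1c1a (-1.34) were higher in IF. The autophagy list kept 16 of 45 genes, with 1 (6.25%) past 1 in each direction. These were atg3, an enzyme of lipid conjugation to Atg8 proteins, at 1.83 and tp53inp1, a p53 target, at -1.36.

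Antioxidant genes had members past 1 on both sides. Of 42 genes 24 were kept, with a median of -0.18. Higher in 3TD were 4 (16.7%) and higher in IF 2 (8.33%), beside 7.8% and 7.64% of all genes kept. Peroxiredoxin 2, prdx2, had medians of 64.5 TPM in 3TD (0 to 885) and 0 TPM in IF (0 to 437) and a difference of 1.86. Glutathione peroxidase 1a, gpx1a, was read in 18 of 35 and 8 of 43 cells and differed by 2.08. Another glutathione peroxidase, gpx4a, which acts on lipid peroxides, lay at -1.14, and nfe2l2a (Nrf2), a transcription factor of the antioxidant response, at -1.05.

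Among transcription factors of beta-cells, more were higher in IF. Of 30 genes 15 were kept, with a median of -0.67. None was higher in 3TD and 5 (33.3%) were higher in IF, beside 7.8% and 7.64% of all genes kept. With ins left out 3 of 18 kept were higher in 3TD and 5 in IF (median -0.14), beside 18.5% and 6.29% of all genes. The homeobox gene mnx1 had medians of 67.1 TPM in 3TD (0 to 410) and 175.9 TPM in IF (0 to 1319), and its difference was -2.08 on both scales. The gene mlxipl (ENSDARG00000104054, listed in the study as si:ch1073-189o9.1), which encodes the glucose-responsive factor ChREBP, was read in 20 of 35 and 30 of 43 cells and differed by -1.80. In the normally fed 4 mpf pools, which differ in depth, mnx1 had means of 3.51 and 5.28, beside 4.02 ± 3.69 in 3TD and 6.1 ± 3.49 in IF.

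Signalling by insulin and nutrients gave few genes past 1. Of 57 genes of insulin, mTOR and FOXO signalling 14 were kept, 1 higher in 3TD and 1 in IF (median -0.17). The former was txnipa, an inhibitor of thioredoxin that glucose induces in mammalian beta-cells, with reads in 17 of 35 and 13 of 43 cells and a difference of 1.16. The median of txnipa was 0 TPM in both pools. The gene higher in IF was mknk2b (-2.67), described above beside the initiation factors. The transcription factor foxo1a had medians of 12.5 and 18.6 TPM and a difference of -0.03. The clock list kept 10 of 37 genes with the repressor nfil3-6 past 1 (-1.23), and the interferon and inflammatory list 10 of 43 with isg15 (-1.18) and irf2 (-1.20), read in 2 and 3 of 35 and 8 and 11 of 43 cells.

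Splicing factors had genes past 1 in each direction. Of 77 genes 54 were kept, with a median of 0.05. Higher in 3TD were 7 (13%) and higher in IF 10 (18.5%), beside 7.8% and 7.64% of all genes kept. In the 4, 3 and 6 mpf pairs 18 of 61, 21 of 59 and 11 of 61 splicing factors were past 1. The kinase clk2a, which phosphorylates splicing factors, was read in 4 of 35 3TD cells (11.4%, 3.2 to 26.7%) and 20 of 43 IF cells (46.5%, 31.2 to 62.3%) and differed by -2.15. The SR protein gene srsf6b (-2.14) and sf3b1 of the U2 particle (-2.02) were also higher in IF. Small core subunits went the other way, with sf3b5 at 1.5 and snrpd2 at 1.48.

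Outside these lists, several well expressed genes stood at the ends of the ranking. Higher in 3TD were rgs8, a regulator of G-protein signalling (medians 68.2 and 0 TPM, difference 2.21), pfdn1, a subunit of the prefoldin chaperone (59 and 0 TPM, 2.2), and anapc16, of the anaphase-promoting complex (67.2 and 0 TPM, 2.18). The secreted glycoprotein gene fstl1a (2.07), the endophilin gene sh3gl2 (1.97), which acts in endocytosis, and sdf4 (1.90), a calcium-binding protein of the Golgi, followed with si:zfos-169g10.3 (2.05). For sdf4 reads were in 34 of 35 3TD cells (97.1%, 85.1 to 99.9%) and 27 of 43 IF cells (62.8%, 46.7 to 77%). Its highest TPM was in IF all the same, at 569 against 287.

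Higher in IF were C2CD4A, arl4ab, tspan3a and wu:fb55g09. For C2CD4A, a gene of the family at a human type 2 diabetes locus, the median was 109.4 TPM in 3TD (0 to 1759) and 346 TPM in IF (0 to 4264), with reads in 27 of 35 and 42 of 43 cells and a difference of -2.59. The small GTPase gene arl4ab was read in 8 of 35 and 26 of 43 cells, at medians of 0 and 89.9 TPM, and differed by -2.98. The tetraspanin gene tspan3a had medians of 23 and 97.3 TPM (-2.01), and wu:fb55g09, with no role assigned, 0 and 198 TPM (-2.69). In each of these the IF cells reached the higher maximum.

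Set beside same-age pools, list medians of this size were not unusual, but those pairs also carried shifts of all genes. The median of all genes kept was -0.14 in the 4 mpf, -0.71 in the 3 mpf and 0.13 in the 6 mpf pair. Between the diets it was 0.02, and the list medians below are given without removing these shifts. The proteasome median was 0.48 between the 4 mpf pools, -1.84 between the 3 mpf and -0.13 between the 6 mpf batches, and complex I had 0.02, -1.44 and -0.13. The unfolded protein response had -1.27, -0.75 and 0.48, of which -0.75 lay near the median of all genes in the 3 mpf pair. Its median between the diets, -0.64, was nearer to 0 than in the 4 and 3 mpf pairs when such shifts are left in. For heat-shock genes the pairs gave -0.78, -0.23 and 0.01 against -1.43 between the diets. For immediate-early genes they gave 0.33, 0.38 and -0.13 against -1.12. Of the 15 lists plotted, 4 had a diet median farther from 0 than every same-age pair. The other 2 were beta-cell transcription factors (-0.67 against -0.52, -0.05 and -0.34) and elongation factors (-0.63 against 0.24, -0.56 and 0.36).

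**Figure D5:**
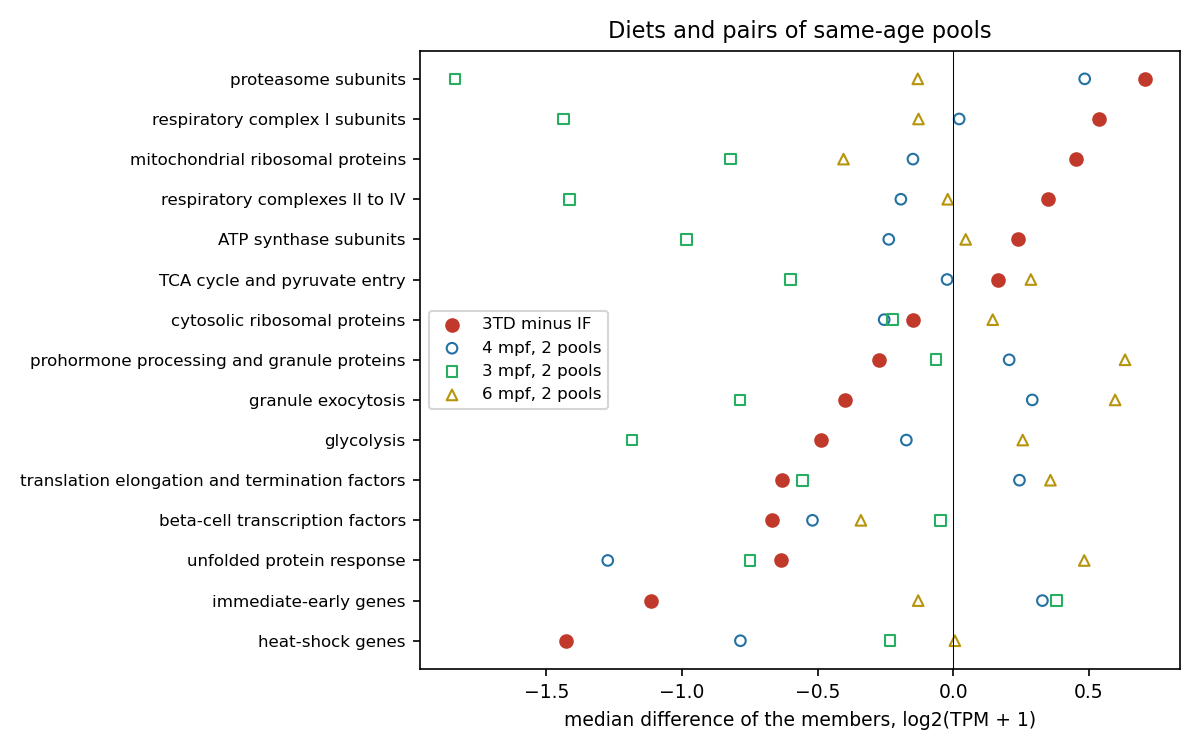
Median difference of the kept members of 15 lists for 3TD minus IF (red) and for pairs of normally fed pools of the same age at 4, 3 and 6 mpf (open symbols), on the log2(TPM + 1) scale. Heat-shock (-1.43) and immediate-early genes (-1.12) lie farther from 0 between the diets than in the pairs, whereas the 3 mpf pair exceeds the diets for the proteasome and the respiratory complexes. The median of all genes kept in the 3 mpf pair is -0.71.

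Gene length moved with the difference to a limited extent. Across the 3232 genes the rank correlation of effective length with the difference was -0.17, and the median length, relative to the median gene, was 0.74 for genes higher in 3TD and 1.11 for genes higher in IF. Of the 324 shortest genes 59 were higher in 3TD and 13 in IF, and of the 324 longest 11 and 19. Counted against genes of like length, 246 and 250 genes were past 1, with a median of 0.59 for the proteasome and 0.42 for complex I.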

How the data were processed

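Single beta-cells were sorted by fluorescence and sequenced after SMART-Seq v4 amplification. Per the labels, the authors trimmed reads with Trim Galore, aligned them to GRCz10 with HISAT2 and counted genes with HTSeq, whose versions are not given in the sources used here, and the deposited tables of 31916 genes hold counts and TPM for the training cells and TPM for the others, including both diets. The tables of other ages and platforms were not used. Effective gene lengths were recovered by comparing counts and TPM of the 637 training cells, and whole reads per gene of the diet cells were recovered with them, so that reads could be counted and thinned. The cells of the second 4 mpf batch were assigned by their table, since its column names repeat those of training cells, and 0 columns of per-sample values were left unused.

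Genes with a mean log2(TPM + 1) of at least 1 over the 78 cells were kept, with a pseudocount of 1 TPM, and a difference of means above 1 or below -1 was counted. With 1 pool of 6 fish per diet no test was applied, although the study tested cells. Intervals for shares of cells are exact Clopper-Pearson at 95%, and a share of 0 allows up to 3 cells of the total. Reads were thinned to 200000 per cell (33 of 35 and 39 of 43 cells remained) or to 100000 other than ins (33 and 40 remained). The code that forms the differences was checked on simulated counts with known changes, which is no test of the diets. Gene names came from the study's gene tables for 2094 of the 3232 genes kept and from the reference table for 1117 (upper case where it gave a human symbol), and 21 had none. Columns of the authors' own comparisons in those tables hold fold changes and p-values and were not used.

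Genes named are the hormone and granule genes of mean at least 3, the 2 members with the largest differences past 1 in each direction of every other list, the 10 largest of mean at least 3 with a symbol in each direction, and 9 metabolic and stress genes whatever their values. Heat-shock and immediate-early genes appear only as lists, and beta-cell and other lineage markers were checked separately. The comparison, the lists and these rules were chosen with earlier results of these data known. The alternatives tried were other pseudocounts, filters, thresholds and ways to average, leaving out ins, the 20 most abundant genes or the cells with fewest reads, thinning, and centring. Computation used Python 3.11.15, numpy 2.4.6, pandas 2.3.3, scipy 1.17.1 and matplotlib 3.10.9.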

Additional observations from a re-analysis of the deposited data

How the results depend on the processing

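No paired analysis was possible because each diet is a single pool, and no replicate could be left out. The percentages of genes kept that were higher in 3TD and in IF, 7.8% and 7.64% as reported, depended on how low values were weighted. They were 21.7% and 12.5% with a pseudocount of 0.1 TPM, 0.526% and 2.38% with 10 TPM, 7.75% and 12.5% of 890 genes with a mean of at least 3, and 1.83% and 31.8% on the log2 of the mean TPM. At a threshold of 1.5 they were 2.1% and 2.41%, and at 0.5 they were 24.2% and 22.5%. Genes higher in 3TD were 14.2% with trimmed means, 18.5% of 4210 with ins left out, 19.7% of 4363 with the 20 most abundant genes left out and 11.8% of 3300 without the cells with the fewest reads in each pool. Alternatives chosen after seeing the data gave 20.8% of 4209 with reads other than ins thinned and, with ins left out and differences centred, 11.1% and 10.9% of 4210. Without the sst1.1 cells the counts were 264 and 254, and without cells under 100000 reads 297 and 237. All 83 named genes past 1 kept their direction under the alternatives that kept them, except 6 on the log2 of the mean TPM: atp5g3a (-0.05), dars (-0.01), eif4a1a (-0.17), lgmn (-0.60), sdf4 (-0.15) and sh3gl2 (-0.09). With 10 TPM 34 of the 83 were still past 1, and 44 on the log2 of the mean TPM. List medians that changed sign were those of granule proteins (0.21, 0.29 and 0.33 with ins left out, with the 20 most abundant genes left out and with reads other than ins thinned), glycolysis (0.05 and 0.03 under the last 2), and glucose entry (0.13, 0.17 and 0.06 under the same 3, and 0.07 with no filter). The circadian clock gave 0.10 and 0.19 under the first 2. With the 20 most abundant genes left out exocytosis was 0.02 (and 0.08 with a mean of at least 3) and elongation 0.05. On the log2 of the mean TPM the proteasome was -0.23 and autophagy -0.51, and the amino-acid response was 0.01 with no filter. The cause of these changes was not tested.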
